A study of Rattus norvegicus with 8 samples.

Results

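The 35 genes described here encode RNA polymerase I, its initiation factors and the proteins that process ribosomal RNA and assemble ribosomal subunits. They were listed by symbol, and each of the 35 symbols matched 1 row of a table of 24059 genes. PolyA-enriched RNA sequencing was done on GFP-positive germ cells isolated from the testis. The donors were 8 prepubertal Sprague-Dawley rats, all transgenic for the germ cell reporter GCS-EGFP. The 4 treated rats (numbers 2, 3, 6 and 8) received doxorubicin at 5 mg/kg in vivo on postnatal day 6. The 4 control rats (numbers 1, 4, 5 and 9) received vehicle, and in both groups cells were taken 24 h later. The comparison asks what the drug changed in these cells within a day.

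RNA polymerase I transcribes the ribosomal RNA precursor in the nucleolus. Small nucleolar ribonucleoproteins (snoRNPs) modify and cleave that precursor, and large protein assemblies fold it with ribosomal proteins into the small and large subunits. Dividing cells such as spermatogonia depend on this supply, and anthracyclines such as doxorubicin are known to inhibit ribosomal RNA synthesis itself. PolyA libraries do not measure that product. They measure the messenger RNAs of the machinery, which is what follows.

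All 35 members passed the filter on low counts, with 543 to 64239 estimated counts per library. Library totals ran from 41253800 to 58871000. Levels are given as CPM, counts scaled to library size with TMM factors. Over the 16976 genes tested, edgeR's quasi-likelihood test at a Benjamini-Hochberg adjusted p below 0.05 called 0.106% of genes higher and 0.00589% lower. Of 13 p53 targets checked as a sign of the treatment, 12 were higher without overlap between the groups, where 2.77% of all genes tested were. Only 3 of the 13 passed edgeR (Eda2r, Aen and Ccng1), and Cdkn1a did not (edgeR adjusted p = 0.107). Eda2r measured 1.51 to 2.13 CPM in controls and 9.11 to 16.1 CPM after doxorubicin, and Cdkn1a 5.37 to 6.14 and 15.0 to 36.0 CPM. Ccng1 measured 20.5 to 24.5 and 102.2 to 212.1 CPM, and Aen 43.8 to 47.6 and 83.3 to 124.7 CPM. Doxorubicin rat 2 was highest in all 4 genes. The summed level of 10 germ cell markers was 2125 to 2209 CPM in controls and 2155 to 2236 CPM in treated libraries. The 7 Leydig cell markers summed to 7.75 to 9.69 and 5.08 to 11.2 CPM, and the 10 Sertoli cell markers to 83.3 to 91.7 and 78.5 to 94.5 CPM. The 10 peritubular and stromal markers summed to 69.0 to 85.5 and 61.4 to 82.3 CPM. Of these 10, 8 had negative and 2 positive log2 fold changes, with a median of -0.26. By overlap 2 were lower and 0 higher (1.95% and 2.77% of all genes tested), and 0 passed edgeR. The 6 endothelial markers summed to 74.2 to 87.3 and 85.0 to 95.1 CPM. Most of the endothelial sum was Pecam1, at 63.0 to 74.5 and 71.6 to 83.7 CPM, which overlap. No other endothelial marker was above 5.40 CPM. The 8 leukocyte markers summed to 3.81 to 4.30 and 4.38 to 5.01 CPM, and the 5 erythroid to 6.33 to 8.20 and 8.18 to 13.7 CPM. Of the erythroid genes, Slc4a1 was called higher by edgeR (log2 fold change 1.28 ± 0.18, adjusted p = 0.0339) and was highest in doxorubicin rat 2, while Hbb and Hba-a1 were lower with DESeq2 alone (-1.17 ± 0.29 and -0.88 ± 0.22 on the log2 scale). The leukocyte sums did not overlap between the groups, although Adgre1 had 0 to 1 and C1qa 0 to 3 estimated counts per library. The part of these markers in the results below was not tested. In bulk RNA, fewer cells of a type and less RNA per cell cannot be told apart.

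The start regions of the members give a view of what they share outside expression. A script searched the 250 bases upstream of the RefSeq start site (GRCr8 assembly, whereas the submitters' processing notes name rn6 for the counts) for 2 motifs on both strands. An 8-base site of the type bound by ETS factors, CCGGAAGT, was found upstream of 10 of the 33 members with an entry (30.3%). The same letters stood upstream of 5.8% of 12359 tested genes. The E-box CACGTG, the site of Myc and related factors, was found upstream of 5 of 33 members (15.2%) against 7.95% of tested genes. The median number of CG dinucleotides in the window was 18 for the members and 15 for tested genes. A match describes letters only, and neither binding nor the activity of any factor was measured.

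The stretches below are the last 100 bases before the start site, 5′ to 3′, with either motif in capitals. They are shown for the 3 members whose treated and control levels did not overlap (Rrn3, Nop56 and Nhp2), for some members that act beside them, and for a pair with an E-box close to the start. The members beside them shown here (Polr1c, Nop58, Fbl and Gar1) all carry the ETS-type letters, whereas 10 of the 33 members with an entry do. Partners without a match, such as Ubtf and Nop10, are not shown. The locations on GRCr8 are chr10:2672296-2672395 on the minus strand for Rrn3, chr9:22233218-22233317 (plus) for Polr1c, chr3:137930079-137930178 (plus) for Nop56 and chr9:68614974-68615073 (plus) for Nop58. Those of the others are chr1:92597307-92597406 (plus) for Fbl, chr10:36377920-36378019 (plus) for Nhp2, chr2:221056750-221056849 (minus) for Gar1, chr16:6219783-6219882 (minus) for Gnl3 and chr14:83074246-83074345 (plus) for Pes1.
Rrn3: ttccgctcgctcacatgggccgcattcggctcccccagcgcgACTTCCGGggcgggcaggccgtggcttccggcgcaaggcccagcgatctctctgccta
Polr1c: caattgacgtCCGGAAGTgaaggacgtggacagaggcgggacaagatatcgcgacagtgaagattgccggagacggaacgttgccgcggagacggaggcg
Nop56: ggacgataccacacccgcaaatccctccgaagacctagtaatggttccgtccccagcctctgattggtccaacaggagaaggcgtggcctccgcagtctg
Nop58: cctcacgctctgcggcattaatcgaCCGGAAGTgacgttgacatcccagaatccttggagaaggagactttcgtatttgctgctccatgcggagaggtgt
Fbl: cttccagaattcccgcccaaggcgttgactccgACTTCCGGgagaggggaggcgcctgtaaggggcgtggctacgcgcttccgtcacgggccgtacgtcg
Nhp2: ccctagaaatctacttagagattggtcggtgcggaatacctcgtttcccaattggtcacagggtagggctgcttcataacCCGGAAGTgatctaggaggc
Gar1: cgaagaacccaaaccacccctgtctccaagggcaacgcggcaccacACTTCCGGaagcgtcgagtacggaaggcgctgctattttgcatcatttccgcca
Gnl3: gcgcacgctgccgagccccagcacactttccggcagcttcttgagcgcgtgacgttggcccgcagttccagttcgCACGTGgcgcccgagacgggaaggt
Pes1: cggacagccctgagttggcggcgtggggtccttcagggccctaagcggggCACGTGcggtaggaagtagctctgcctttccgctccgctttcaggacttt

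In these stretches the ETS-type letters lie 58 bases upstream in Rrn3, 90 in Polr1c, 75 in Nop58, 67 in Fbl, 54 in Gar1 and 20 in Nhp2, counted to the first base of the match. Nop56 has neither motif in its 250 bases, although its protein works in the same particle as those of Nop58 and Fbl. The other ETS-type matches were in Bysl, Ddx21, Dkc1 and Polr1e, and the other E-boxes in Dkc1, Mybbp1a and Utp20. Of the 3 members whose groups stood apart, Rrn3, which measured higher, and Nhp2, which measured lower, both carry the ETS-type letters.

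Another shared feature is the hosting of snoRNA genes, the guides used by the snoRNPs. In the RefSeq annotation, 6 of the 35 members (17.1%) hold snoRNA genes within their span, against 2.35% of 15050 tested protein-coding genes. Taf1d holds 8, Nop56 and Nop58 hold 5 each, and Ncl, Gnl3 and Wdr43 hold 3 each. These small RNAs lack polyA tails, so the values below are those of the host messenger RNA.

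After doxorubicin the members stayed close to their control levels. None of the 35 passed edgeR's test over all genes. At an unadjusted p below 0.05, 1 member was higher (Rrn3) and 2 were lower (Nop56 and Nhp2), where the same rule took 4.19% of all genes tested as higher and 2.56% as lower. DESeq2, at an adjusted p below 0.05, called 1 member higher (Rrn3) and 0 lower, where it called 0.948% and 0.0707% of all genes. The groups did not overlap for 1 member that was higher and 2 that were lower, where 2.77% and 1.95% of all genes tested did not. In a list of 35, 1 gene is 2.86% and 2 genes are 5.71%. At the background shares a list of 35 would hold 1.5 and 0.9 genes by unadjusted p, 0.97 and 0.68 by overlap, and 0.33 and 0.025 by DESeq2, so the members differed from the background by 2 genes at most.

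The limits on each member were narrow. For all 35, the 95% interval of the fold change lay within 1.2-fold in either direction, and for 24 within 1.1-fold. Over all genes tested, 48.0% had an interval within 1.2-fold, but that set holds many genes with fewer counts. The share was 96.2% for 156 other ribosome biogenesis genes and 90.3% for 72 cytosolic ribosomal protein genes, so narrow limits were not particular to the members. The log2 fold changes ran from -0.09 (Nop56) to 0.17 (Rrn3). Negative values were found for 27 members and positive values for 8, with a median of -0.02, where 52.2% of all genes were negative and their median was -0.0047. With library size as the only scaling 29 members were negative, and without doxorubicin rat 2 it was 21. The treated rats did not share this lean. The members' median log2 difference from the control mean was -0.044 and -0.036 in doxorubicin rats 2 and 3. In doxorubicin rats 6 and 8 it was 0.0012 and 0.0055. The summed level of the 35 was 7752.5 ± 92.9 CPM in controls and 7664 ± 162 CPM after doxorubicin (SD, n = 4 each), with ranges of 7653 to 7874 and 7501 to 7813 CPM that overlap. The plot of fold changes with their intervals shows the members in order of role.

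**Figure D1:**
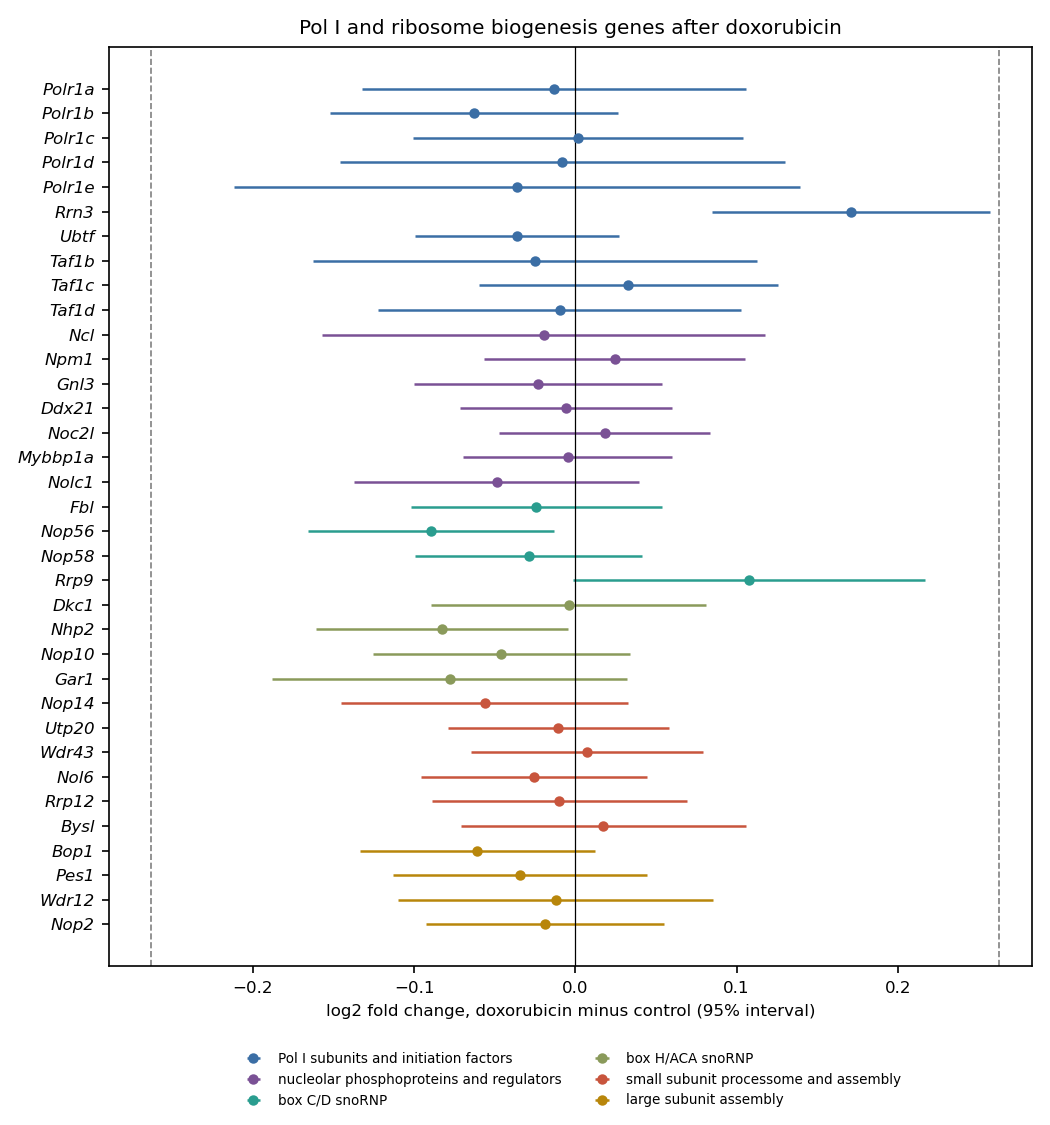
Log2 fold change of each of the 35 members (doxorubicin minus control, x axis) with its 95% interval from edgeR, 1 row per gene, coloured by role; the dashed lines mark 1.2-fold in either direction. All 35 intervals lie between the dashed lines, and those of Rrn3, Nop56 and Nhp2 do not include 0.

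The polymerase subunits were level between the groups. Polr1a, the largest subunit with the catalytic site, measured 149.3, 141.6, 124.1 and 139.8 CPM in control rats 1, 4, 5 and 9, and 147.5, 133.6, 135.7 and 132.8 CPM in doxorubicin rats 2, 3, 6 and 8. The lowest and the highest of these 8 values were both controls. Its log2 fold change was -0.01 ± 0.05 (SE; 95% interval -0.13 to 0.11). Polr1b, its partner in the catalytic core, averaged 177.0 ± 7.99 CPM without and 169.4 ± 6.34 CPM with the drug (log2 fold change -0.06, 95% interval -0.15 to 0.03). Polr1c and Polr1d, which form an assembly platform shared with RNA polymerase III, had log2 fold changes of 0.00 ± 0.05 and -0.01 ± 0.06. Polr1e, a subunit that helps initiation, had the fewest counts of the members and the widest interval, from -0.21 to 0.14, around -0.04.

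Rrn3 was the member that stood furthest from its controls. It encodes TIF-IA, the factor that bridges the polymerase to its promoter-bound partners and through which growth and stress signals are known to act. Controls measured 49.4, 48.8, 51.2 and 49.9 CPM and treated rats 58.0, 55.7, 55.3 and 55.4 CPM. Every treated library was above every control, and rat 2 was the highest. The mean was 49.8 ± 1.03 CPM in controls and 56.1 ± 1.29 CPM after doxorubicin (SD, n = 4 each). That is 12.6% higher with a 95% interval from 6.04% to 19.5%, and a log2 fold change of 0.17 ± 0.04 (SE). The edgeR test left it short of the threshold (adjusted p = 0.158), while DESeq2 placed it past it (adjusted p = 0.00657). Without doxorubicin rat 2 the log2 fold change was 0.15 (edgeR adjusted p = 0.352).

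**Figure D2:**
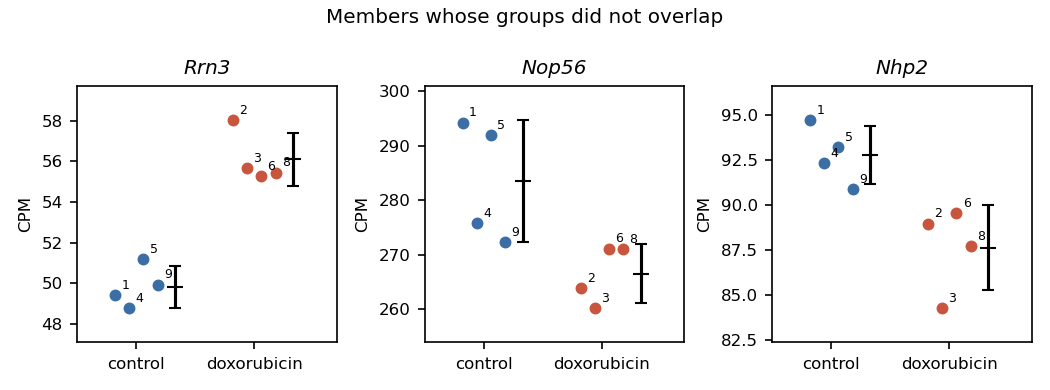
Level in CPM (y axis, not starting at 0) of Rrn3, Nop56 and Nhp2 in each library, labelled with the rat number, with the mean and SD of each group in black (n = 4). Rrn3 is higher in all 4 treated rats, and Nop56 and Nhp2 are lower in all 4, with gaps between the groups of different size.

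None of the promoter factors that Rrn3 works with passed either tool. Ubtf, which encodes UBF and keeps ribosomal DNA open, measured 437.4 to 453.9 CPM in controls and 427.0 to 441.0 CPM after doxorubicin, and the ranges overlap. Its 95% interval ran from -0.10 to 0.03 on the log2 scale. The selectivity factor subunits Taf1b, Taf1c and Taf1d had log2 fold changes of -0.03 ± 0.06, 0.03 ± 0.04 and -0.01 ± 0.05. Of the 10 polymerase and initiation members, 7 were negative and 3 positive, and 0 passed edgeR over all genes. Of the 10, 6 took the other sign in at least 1 of 18 other settings: Polr1c in 6, Polr1d in 5, Polr1a and Taf1d in 4 each, and Polr1e and Taf1b in 1 each. For Polr1c these included library size only and thinned libraries, for Polr1d thinned libraries, and all the rest left out 1 library. Among the 18, the threshold of 0.1 and the fit that was not robust left every log2 fold change as it was. Neither could change a sign.

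The nucleolar proteins that bind ribosomal RNA or regulate growth were steady. Ddx21, a helicase that links transcription to processing, measured 179.6 to 188.6 CPM in controls and 182.9 to 184.8 CPM after doxorubicin. The treated range lies inside that of the controls. Its 95% interval ran from -4.85% to 4.26%. Mybbp1a, a nucleolar protein that binds transcription factors, was as narrow, at 363.9 to 385.0 and 366.8 to 374.3 CPM (interval -4.72% to 4.25%). For Gnl3, which encodes nucleostemin, a GTP-binding protein of stem and dividing cells, the log2 fold change was -0.02 with limits of -0.10 and 0.05. Noc2l, a factor of large subunit transport, differed by 0.02, between -0.05 and 0.08.

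Nucleolin and nucleophosmin, the abundant nucleolar phosphoproteins, varied more among rats than between the groups. Ncl measured 989.3, 1132.9, 1154.9 and 1144.0 CPM in control rats 1, 4, 5 and 9 and 981.7, 1064.8, 1152.3 and 1162.4 CPM in doxorubicin rats 2, 3, 6 and 8. Rats 1 and 2 were the lowest of their groups. Npm1 averaged 787.9 ± 24.97 CPM without and 801.4 ± 33.8 CPM with the drug (log2 fold change 0.02, 95% interval -0.06 to 0.11). Nolc1, a chaperone of snoRNPs, measured 214.9 to 224.1 CPM in controls. After doxorubicin it was 223.0 and 219.4 CPM in rats 2 and 3 but 205.5 and 197.7 CPM in rats 6 and 8, and its log2 fold change was -0.05 ± 0.04.

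The box C/D snoRNPs methylate ribosomal RNA, with Fbl (fibrillarin) as the methyltransferase and Nop56 and Nop58 as its scaffold. Nop56 measured 294.3, 275.8, 292.0 and 272.3 CPM in controls and 263.9, 260.2, 271.2 and 271.0 CPM after doxorubicin. All treated values were below all controls, but control rat 9 and doxorubicin rat 6 differed by little. The log2 fold change was -0.09 ± 0.04, a change of -6.01% with a 95% interval from -10.9% to -0.899% (edgeR adjusted p = 0.622; DESeq2 adjusted p = 0.589). Its partner Nop58 overlapped between the groups, at 281.9 to 295.3 and 276.4 to 292.6 CPM. Fbl stood at 349.4 ± 10.9 and 343.7 ± 12.4 CPM, also overlapping.

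Rrp9, a protein of the snoRNP that guides the first cleavages of the precursor, had the largest positive value after Rrn3. Controls measured 63.7, 61.2, 60.5 and 59.9 CPM and treated rats 72.8, 64.5, 62.8 and 64.2 CPM. Rat 2 stood well above the other 3 treated rats, and doxorubicin rat 6 lay below control rat 1. The log2 fold change was 0.11 ± 0.05 (95% interval -0.00 to 0.22; edgeR adjusted p = 0.749), and leaving out rat 2 gave 0.06 (edgeR adjusted p = 0.972). In the RefSeq annotation Rrp9 overlaps Parp3, so reads of the pair cannot be told apart without strand. Parp3 itself had 2.52 ± 0.35 CPM in controls and a log2 fold change of 0.04.

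The box H/ACA snoRNPs convert uridine to pseudouridine, with Dkc1 (dyskerin) as the enzyme and Nhp2, Nop10 and Gar1 as its partners. All 4 had negative log2 fold changes, and 0 passed edgeR over all genes. Dkc1, the nearest to 0, was positive in 5 of 18 other settings (libraries thinned to equal depth, and leaving out control 1, control 5, doxorubicin 2 or doxorubicin 3). The other 3 were negative in all 18, among them the threshold of 0.1 and the fit that was not robust, which could not change a sign. Nhp2 measured 94.7, 92.3, 93.2 and 90.9 CPM in controls and 89.0, 84.3, 89.6 and 87.7 CPM after doxorubicin, without overlap. Doxorubicin rat 3 was the lowest. That is a change of -5.57%, with a 95% interval from -10.5% to -0.314% (log2 fold change -0.08 ± 0.04, edgeR adjusted p = 0.696). Gar1 had a log2 fold change of -0.08 ± 0.05 and Nop10 one of -0.05 ± 0.04, both with groups that overlap. Dkc1, at 398.9 ± 10.4 and 397.8 ± 20.5 CPM, differed by -0.00 ± 0.04.

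The small subunit members build the processome, the particle that cleaves the precursor, and carry the early subunit out of the nucleus. Nop14, Utp20, Wdr43 and Nol6 are processome proteins. Their log2 fold changes were -0.06 ± 0.04, -0.01 ± 0.03, 0.01 ± 0.03 and -0.03 ± 0.03, where Wdr43 was negative with library size only and without control rat 4 or doxorubicin rat 8. Utp20 measured 333.0 to 356.0 CPM in controls and 334.7 to 348.5 CPM after doxorubicin. The treated range again lies inside the control range. Rrp12 and Bysl, which act in maturation and export of the small subunit, had log2 fold changes of -0.01 ± 0.04 and 0.02 ± 0.04.

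Large subunit assembly was represented by Bop1, Pes1 and Wdr12, which form the PeBoW complex, and by Nop2, an RNA methyltransferase. All 4 were negative, although Wdr12 was positive without doxorubicin rat 2, and 0 passed edgeR over all genes. Bop1 measured 180.2, 176.1, 177.2 and 171.5 CPM in controls and 165.2, 175.5, 168.7 and 166.6 CPM after doxorubicin. Doxorubicin rat 3 was within the control range, and the other 3 were below it. Its log2 fold change was -0.06 ± 0.03 (95% interval -0.13 to 0.01). The complex partners Pes1 and Wdr12 had log2 fold changes of -0.03 ± 0.04 and -0.01 ± 0.05, and Nop2 one of -0.02 ± 0.03.

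**Figure D3:**
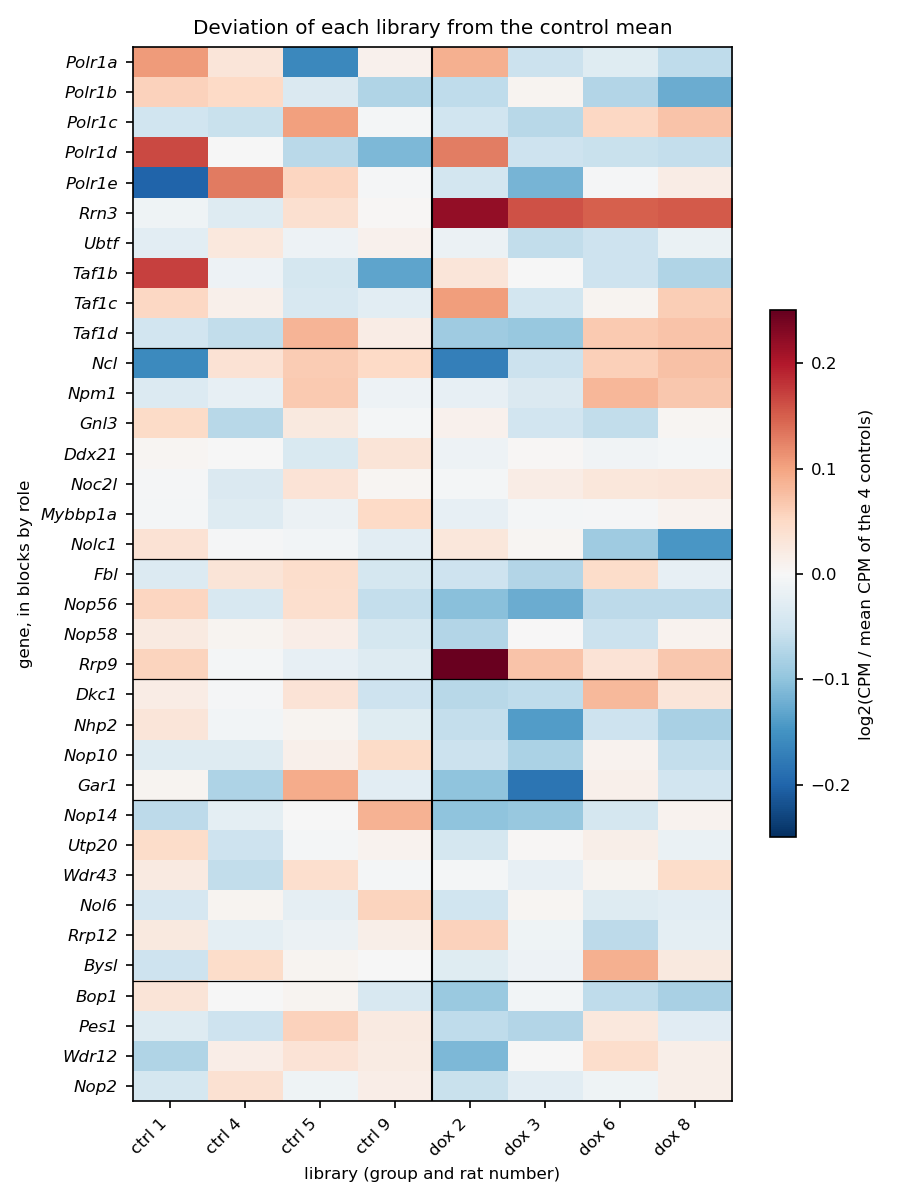
Deviation of each member (rows, in blocks by role) in each library (columns, group and rat number) from the mean of the 4 controls, as log2 of the CPM ratio from -0.25 (blue) to 0.25 (red). Rrn3 is red in all 4 treated columns, while the deviations of Ncl, Polr1d and Taf1d follow the rat rather than the treatment.

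The spread between rats of 1 group was small for most members. The coefficient of variation (CV, SD over mean) among the 4 controls had a median of 2.95% over the members and ran from 1.60% (Rrp12) to 9.47% (Polr1e). Among treated rats the median was 3.52%, with Ddx21 lowest at 0.436% and Ncl highest at 7.76%. The median control CV over all genes tested was 8.28%, a set that holds many genes with fewer counts.

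Part of this spread went with the rat numbers in the labels. No label calls the numbers a batch, and the comparison was made after the values were seen, so no test is given. Rats 1 to 4 and rats 5 to 9 each hold 2 controls and 2 treated rats. For 5 members all rats numbered 5 to 9 lay above all rats numbered 1 to 4 (Ncl, Npm1, Polr1c, Taf1d and Pes1). For 3 members they lay below (Polr1d, Taf1b and Nolc1). Over all genes tested 4.74% lay above and 4.55% below. Taf1d measured 71.6 to 73.9 CPM in rats 1 to 4 and 77.5 to 81.1 CPM in rats 5 to 9, a log2 difference of 0.13. Ncl averaged 1042 and 1153 CPM (difference 0.15) and Polr1d 75.1 and 68.4 CPM (difference -0.13). For 24 of the 35 members the difference between the number sets was larger in size than that between treatments. The same share was not computed over all genes tested, so this count cannot be called particular to the members. With the number set as a term in the edgeR fit, 0 members passed, and the Rrn3 estimate stayed at 0.17 (adjusted p = 0.103). Within rats 1 to 4 it was 0.22, and within rats 5 to 9 it was 0.13.

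**Figure D4:**
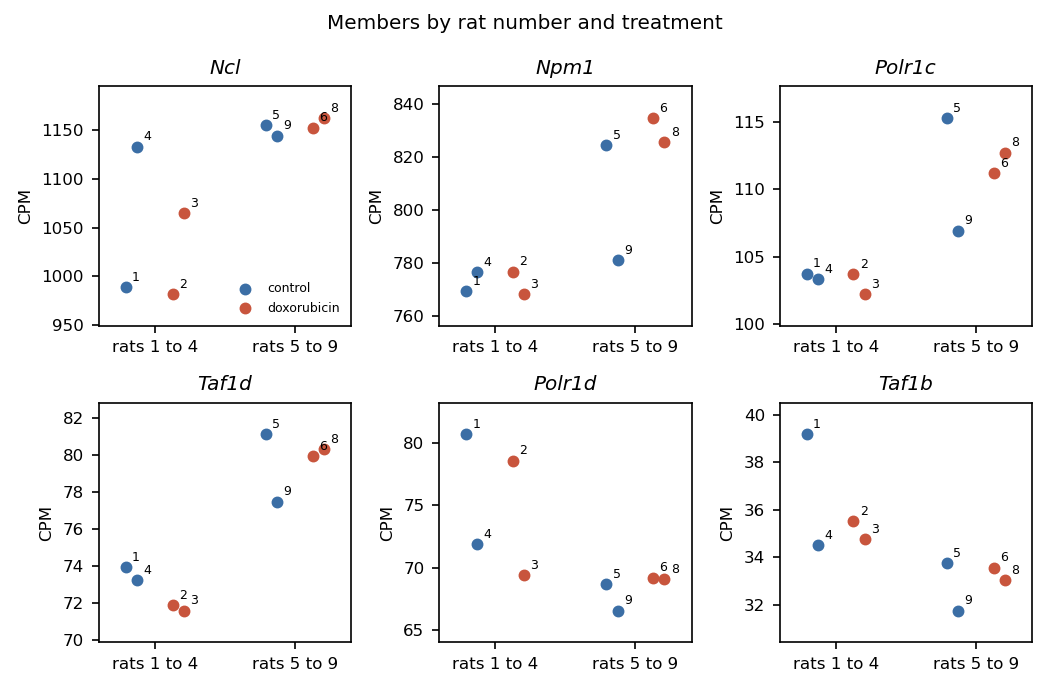
Level in CPM (y axes, not starting at 0) of 6 members in each library, split by rat number (1 to 4 or 5 to 9, labels beside points) and coloured by treatment. Ncl, Npm1, Polr1c and Taf1d are higher in rats 5 to 9 and Polr1d and Taf1b are lower, in control and treated rats alike. All 6 are from the members in which rats 5 to 9 all lay above, or all below, rats 1 to 4, so this pattern is set by that choice. Pes1 and Nolc1, which also did, are not shown.

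The rest of the pathway was described from lists of other genes. Across 5 lists of other ribosome biogenesis genes, 156 genes were tested and 0 passed edgeR or DESeq2 over all genes. At an unadjusted p below 0.05, 1 was higher and 6 were lower (0.641% and 3.85%, where all genes tested had 4.19% and 2.56%). Their median log2 fold change was -0.02, with 119 negative and 37 positive. Among 18 other genes of RNA polymerase I transcription, Polr1g, a subunit, had 34.0 ± 1.65 CPM in controls and 30.1 ± 1.42 CPM after doxorubicin (log2 fold change -0.17 ± 0.05, edgeR adjusted p = 0.416). Sirt7, a deacetylase that promotes this transcription, measured 11.99 to 13.3 and 10.7 to 11.8 CPM without overlap (log2 fold change -0.19 ± 0.07, edgeR adjusted p = 0.594). Tcof1, the nucleolar protein treacle, had a log2 fold change of -0.05 ± 0.03.

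Among 50 other small subunit genes, 38 were negative and 12 positive. Rcl1, a processome protein, had the smallest p, with means of 52.0 ± 2.26 and 47.3 ± 1.57 CPM without overlap (log2 fold change -0.14 ± 0.05, edgeR adjusted p = 0.473), followed by Nol11 (-0.07 ± 0.03) and Pno1 (-0.09 ± 0.04). Of 52 other large subunit genes, 41 were negative and 11 positive. Mak16 (0.13 ± 0.06), Ddx54 (-0.11 ± 0.05) and Rpf2 (-0.09 ± 0.04) led that list by p, none past the threshold. In the list of the nuclear exosome, which trims the precursor, and RNase MRP, which cuts it, 21 of 23 were negative with a median of -0.04. Exosc2 had a log2 fold change of -0.12 ± 0.05, Pop7 one of -0.14 ± 0.06 and Rpp38 one of -0.10 ± 0.06. Of 13 other snoRNP assembly genes, 9 were negative, among them Ruvbl1 (-0.05 ± 0.03) and Nop9 (-0.07 ± 0.05), while Rpap3 was positive (0.05 ± 0.03).

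Cytosolic ribosomal protein genes, whose products the members assemble, gave values of the other sign. Of 72 tested, 61 were positive and 11 negative, with a median log2 fold change of 0.03. Rpl38 had 0 and Rpl30 1 to 6 estimated counts per library, and neither was tested. How multi-mapped reads were handled is not given for this list either. No gene of this list passed edgeR over all genes (by unadjusted p, 8 or 11.1% were higher and 0 lower, where all genes tested had 4.19% and 2.56%). Rps27l, also a known p53 target, was the 1 gene that DESeq2 placed higher. Their summed level was 22914 to 24477 CPM in controls and 22950 to 25168 CPM after doxorubicin, which overlap. Rps19 (0.15 ± 0.04) and Rpl15 (0.11 ± 0.03) followed Rps27l by p. The difference between the lists was not tested.

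**Figure D5:**
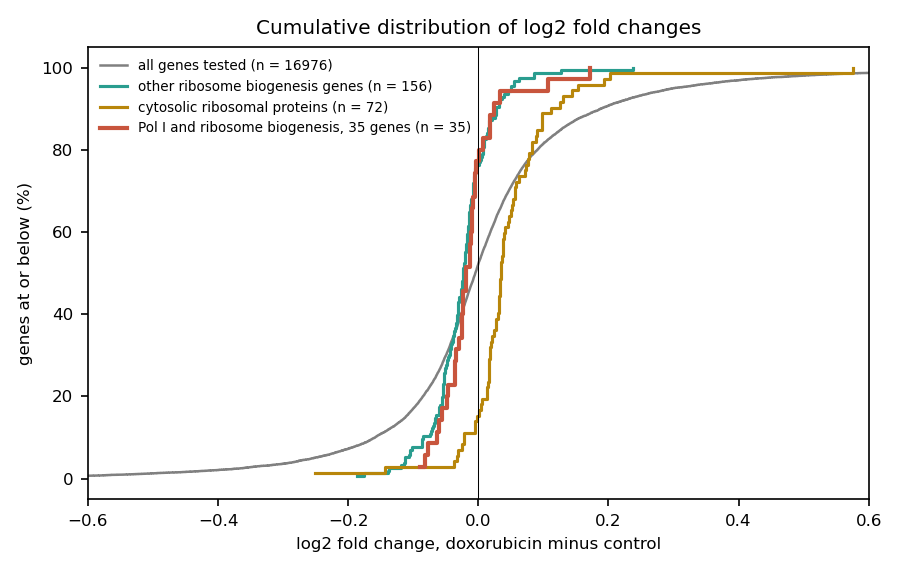
Share of genes (y axis, percent) with a log2 fold change at or below the value on the x axis, for the 35 members, 156 other ribosome biogenesis genes, 72 cytosolic ribosomal protein genes and all 16976 genes tested. The members and the other biogenesis genes pass 0 at 77.1% and 76.3%, all genes at 52.2%, and the ribosomal proteins at 15.3%; values beyond 0.6 in either direction are outside the axis.

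Myc proteins are known activators of ribosome biogenesis genes. Myc itself had 4 to 14 estimated counts per library and was not tested, while Mycn averaged 67.8 ± 6.42 CPM without and 63.3 ± 1.86 CPM with the drug (log2 fold change -0.10 ± 0.06). Mycl measured 6.07 to 7.22 and 5.12 to 5.94 CPM without overlap (log2 fold change -0.21 ± 0.10, edgeR adjusted p = 0.734), and the repressor Mnt had a log2 fold change of 0.05 ± 0.07. Of the 9 genes of this list that were tested, 0 passed.

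Blocked ribosome assembly is known to reach p53 through ribosomal proteins such as Rpl5 and Rpl11, which bind Mdm2. In the list of 12 such sensors and partners, 0 passed edgeR over all genes, with 3 higher and 0 lower by unadjusted p (4.19% and 2.56% of all genes tested). The 3 were Rps27l, Mdm4 and Mdm2, and neither Rpl5 nor Rpl11 was among them. Mdm2 was also in the list of p53 targets used to check the treatment, and Rps27l is a known p53 target. Whether ribosome assembly had a part in these values was not tested. Of the 3, Rps27l and Mdm4 were higher by DESeq2, which placed 0.948% of all genes higher. In so short a list 1 gene is 8.33%. Rps27l measured 27.1 to 33.1 CPM in controls and 40.7 to 55.8 CPM after doxorubicin (log2 fold change 0.58 ± 0.11, edgeR adjusted p = 0.0917). Mdm4, the partner of Mdm2, measured 76.8 to 88.8 and 90.5 to 96.3 CPM without overlap (log2 fold change 0.21 ± 0.05, edgeR adjusted p = 0.169). For Mdm2 the difference was 0.28 ± 0.08 on the log2 scale (edgeR adjusted p = 0.434). Of 20 snoRNA host genes listed, only 4 matched a row by symbol, so most of this list was not measured. All 4 were tested, and Rpl13a (0.10 ± 0.04), Eif4a2 (0.05 ± 0.04) and Tsr1 (-0.05 ± 0.04) led by p, none past the threshold.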

How the data were processed

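PolyA RNA from GFP-positive germ cells of 8 rats was sequenced, with groups of 4 taken from the sample titles. The authors deposited 1 table of estimated counts by gene, not normalized. The submitters' processing notes list kallisto 0.48.0 and featureCounts, fastp 0.23.2 and Trimmomatic, DESeq2 1.40.2, FastQC 0.11.9 with MultiQC 1.12, and rn6, and give no tool a role. How strand and multi-mapped reads were handled is not given in the sources used here. Members with near-identical copies are therefore uncertain. In RefSeq (GRCr8), 13 of the 35 have pseudogenes by name, among them Npm1 (20), Ddx21 (9), Fbl (7), Pes1 (6), Ncl and Nhp2 (5 each), and 8 overlap another protein-coding gene (such as Nop56 with Idh3b).

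Counts were rounded, and 16976 of 24059 genes were kept by filterByExpr. After TMM scaling, the quasi-likelihood test of edgeR was applied (robust, no covariate). Adjustment was by Benjamini-Hochberg over all genes kept, with a threshold of 0.05. Tools were R 4.3.3, edgeR 4.0.16, DESeq2 1.42.0 and limma 3.58.1. CPM errors are SD and log2 errors are SE, derived from the F statistic, and intervals are at 95%. TMM-scaled levels are relative to the other transcripts of a library, so a change shared by all transcripts would not show. No gene lengths of the files' build were used, so levels are not compared between genes. Every pair of libraries differed by more than sampling noise (lowest chi-square divided by its degrees of freedom, 5.73), and all 8 were counted separately. Titles name separate rats.

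The edgeR step was also run on simulated counts with known fold changes. These took their gene means, and a spread common to all genes, from the real table, so the run was not an independent check. The 35 members and all lists were chosen with earlier results of these data known. All members are named, with the genes of each other list that passed and up to 3 by smallest p, and Eda2r, Ccng1 and Cdkn1a as a check of the treatment. The erythroid and leukocyte genes, Pecam1, Rpl30, Rpl38, Myc and Parp3 were named after their values were seen. Marker lists served to check the cell type. Alternatives were DESeq2, limma-voom, other scalings and filters, a fit that was not robust, thinning, a threshold of 0.1, a term for rat number and leaving out each library. Fits within rats 1 to 4 and within rats 5 to 9 were added after seeing the data. Promoter sequences are from RefSeq (GRCr8), where 33 of 35 members matched by symbol.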

Additional observations from a re-analysis of the deposited data

Results flagged for a closer look

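In 5 of 70 groups of 4 libraries (35 members in each of the 2 groups), 1 library lay far from the other 3, where chance gives about 1 in 20 groups, or 3.5. Doxorubicin rat 2 was the high value in 3 of them, with 78.6 CPM for Polr1d, 58.0 CPM for Rrn3 and 72.8 CPM for Rrp9. Control rat 1 was the low value in the other 2, with 989.3 CPM for Ncl and 64.9 CPM for Wdr12. Doxorubicin rat 2 also had the highest Eda2r and Cdkn1a levels of the treated rats.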

How the results depend on the processing

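No member passed edgeR under any scaling, filter, added term, threshold or left-out library that was run, nor with limma-voom, and DESeq2 called 1 member higher (Rrn3) and 0 lower. The members' median log2 fold change stayed between -0.028 and -0.0020 in every alternative. Rrn3, Nop56 and Nhp2 kept their sign in every alternative. Leaving out a library or splitting the rats by number could hardly change it, because the groups did not overlap for these members. Over all genes, edgeR's 18 higher calls became 161 with DESeq2, 52 without robust fitting, 60 with the rat number set as a term, 59 at a threshold of 0.1, 0 within rats 1 to 4 and 89 within rats 5 to 9. They ranged from 1 (without control rat 4 or 5 or doxorubicin rat 8) to 59 (without doxorubicin rat 2) when 1 library was left out. The 1 lower call became 12 with DESeq2, 0 with a mean of at least 1 CPM, 0 within rats 1 to 4, 3 within rats 5 to 9, and 0 to 3 with 1 library left out. The cause of these shifts was not tested.

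Members near 0 changed sign in some fits, none past the threshold. With library size only, Polr1c was at -0.0065 and Wdr43 at -0.00066. With thinned libraries, Polr1c was at -0.0012, Polr1d at 0.0022 and Dkc1 at 0.0014. With 1 library left out, the log2 fold change ranged from -0.063 to 0.024 for Polr1a, -0.022 to 0.038 for Polr1c, -0.056 to 0.052 for Polr1d, -0.098 to 0.014 for Polr1e, -0.062 to 0.037 for Taf1b, -0.038 to 0.022 for Taf1d and -0.069 to 0.028 for Ncl. It ranged from -0.018 to 0.0088 for Ddx21, -0.0115 to 0.016 for Mybbp1a, -0.029 to 0.019 for Dkc1, -0.024 to 0.0048 for Utp20, -0.0090 to 0.021 for Wdr43, -0.033 to 0.013 for Rrp12, -0.0020 to 0.037 for Bysl and -0.037 to 0.020 for Wdr12. No paired analysis was possible because the groups share no rat number.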
